A study of Mus musculus with 90 samples.

Results

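Messenger RNA of whole liver was followed around the day in wild-type mice on the control diet. These livers are the 22 of 90 libraries whose titles carry night-restricted feeding, a zeitgeber time (ZT, hours after lights on) and the WT genotype: 3 at ZT0, 3 at ZT4 and 4 each at ZT8, ZT12, ZT16 and ZT20. The series is about how the glucocorticoid receptor, encoded by Nr3c1, and a diet reduced by 40% in calories shape the daily programme of the liver, and 12 further livers from separate ZT12 experiments are not used here. All mice were male, on the C57BL/6J background, kept on chow in 12 h of light and 12 h of darkness, and 20 to 21 weeks old at the end.

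The WT label stands for mice with the floxed allele, GRfl/fl, and no Cre. They ate freely until the last week, when food was available for 12 h from ZT12, the start of darkness, and each library came from the liver of 1 mouse. Set beside them are 20 GRLKO livers on the same diet, from mice in which Cre under the albumin promoter deleted the floxed receptor in hepatocytes, so that other liver cells kept it. Also compared are 18 WT livers from calorie-restricted mice, fed at ZT12. Since feeding was tied to darkness in every group, rhythms of the light cycle, of feeding and of the internal clock cannot be told apart in these livers.

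Liver cells carry a molecular clock in which the activators CLOCK (or NPAS2) and BMAL1, encoded by Arntl, switch on Period and Cryptochrome genes, whose proteins then shut the activators down. A second loop runs through the nuclear receptors REV-ERB and ROR, which repress and activate Arntl. Clock output factors such as DBP and signals from meals, hormones and body temperature pass the time of day on to metabolic genes.

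The libraries held 11408194 to 17089004 estimated counts (median 13718257), with at least 1 count for 14013 to 14887 genes each. Levels are given as CPM, counts relative to library size after TMM scaling. Hepatocyte markers fitted the liver label: their summed level was 77880.0 CPM in the lowest liver, 96958 at the median and 112860.0 in the highest, and albumin (Alb) alone averaged 66024 CPM. Tf (transferrin), the remaining hepatocyte marker written into the list, had no entry under that symbol. The gene is entered as Trf, which was not part of the sum. Nr3c1 lay between 72.8 and 117 CPM in WT (median 86.9, n = 22) and between 16.2 and 28.8 in GRLKO (median 21.7, n = 20). The genotypes did not overlap.

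A pair of libraries stood apart from the rest. ZT0 replicate 3 was low in major urinary protein transcripts, with Mup7 at 250.3 CPM where every other liver had at least 6601, and high in collagen, with Col3a1 at 77.9 CPM against at most 39.5 elsewhere. ZT16 replicate 2 held exocrine pancreas transcripts: its markers summed to 665 CPM against at most 4.65 in the other livers at ZT16, with Amy2a5 (amylase) at 340.3 CPM. Both were kept, and the counts without them stand beside the main ones. These genes were picked after their values were seen.

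Around the day, 5456 of 18874 genes (28.9%) followed a 24 h rhythm in WT liver by JTK_CYCLE, a rank test with exact p-values, at a Benjamini-Hochberg adjusted p under 0.05 and a JTK amplitude over 0.1 on the variance-stabilised scale. Without the pair that stood apart, 5093 genes were called. Among the 11924 genes past the count filter of the 24 h edgeR test in these 22 livers, 5276 were rhythmic, which is 44.2%. Size and peak time come from a cosine fitted to log2 CPM. Amplitude is the height of that curve above its mean, in log2 units, and errors are standard errors over 22 livers, while time means carry the SD over their 3 or 4 livers. The median amplitude was 0.32 for rhythmic genes and 0.19 for all genes tested. The median rhythmic gene rose 1.57-fold from trough to peak. Amplitudes exceeded 0.5 in 1543 genes, exceeded 1 in 258 and reached 3.66. The cosine took over 75% of the spread between time means in 4598 of the rhythmic genes, and the median standard error of a peak time was 0.729 h.

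Peaks fell in 2802 cases in the light and in 2654 (48.6%) in the dark. The 4 h window centred on ZT0, when darkness and the meal end, held the most: 1316 genes (24.1%) with a median amplitude of 0.52. The window around ZT12, when food arrives, came next in number with 1045 genes and had the smallest median amplitude, 0.25. The other windows held 726 genes around ZT4, 814 around ZT8, 861 around ZT16 and 694 around ZT20. Without the pair that stood apart, the ZT0 window held 1167 genes at a median amplitude of 0.50. For the function lists below, the percentage in brackets is the share of members past the count filter that were rhythmic, to be set beside the 44.2% of all genes past it. By edgeR that share of all genes was 57.5%.

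**Figure D1:**
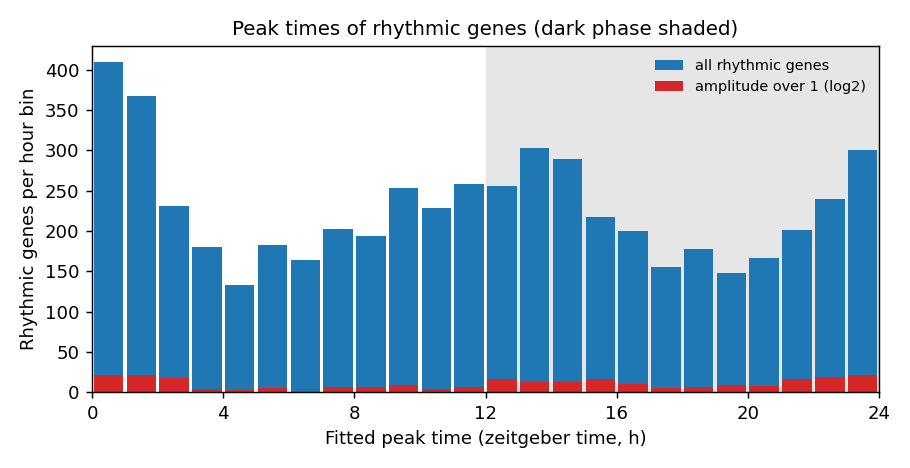
Number of rhythmic genes (vertical axis) by fitted peak time in h after lights on (horizontal axis), with the part of amplitude over 1 in red and darkness shaded. The tallest bars lie around ZT0, in the window of 1316 genes.

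Kupffer, endothelial and stellate markers moved with the ZT0 window. All 8 Kupffer cell markers, all 6 endothelial markers and 6 of 7 stellate cell markers were rhythmic, with mean peaks at ZT1.37, ZT1.14 and ZT23.2. The summed Kupffer markers averaged 162 ± 40 CPM (SD, n = 3) at ZT0 and 65.1 ± 12.9 (n = 4) at ZT12, between 40.1 and 202 over the 22 livers, and Clec4f was their most abundant gene. Endothelial markers, led by Clec4g, summed to 168 ± 11.9 CPM at ZT4 and 78.7 ± 6.03 at ZT12. Stellate markers, led by Dcn, averaged 288 ± 90.8 CPM at ZT0 and 108 ± 16.2 at ZT12, and the highest liver, at 392 CPM, was ZT0 replicate 3. No defining marker of these 3 lists was at 0 in all livers. In bulk liver, fewer cells of a type and less RNA per cell cannot be told apart, and the part of these cells in the genes that peaked near ZT0 was not tested.

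Hepatocyte markers were rhythmic in 3 of 6 cases and cholangiocyte markers in 2 of 4, against 44.2% of all genes past the count filter, with Epcam not tested because it had no counts. Lymphocyte markers summed to at most 6.24 CPM and neutrophil markers to at most 1.51, with Cd79a and S100a9 their most abundant genes and the neutrophil marker Mpo at 0. The test called 3 of 6 and 2 of 4 of them. Without the pair of livers that stood apart the counts were 1 and 2, and with DESeq2 3 and 2. Only 1 lymphocyte and 0 neutrophil markers had enough counts for edgeR, which therefore says nothing on the others. Erythrocyte markers, led by Hbb-bs, summed to 278 to 1517 CPM and adipocyte markers, led by Adrb3, to at most 19.3. JTK_CYCLE called 0 of 5 erythrocyte, 0 of 4 adipocyte and 0 of 7 pancreas markers. At an unadjusted p under 0.05 these counts were 0, 0 and 0, with DESeq2 1, 0 and 0, and with limma 0, 0 and 0. With edgeR 1 erythrocyte marker was called, while 1 adipocyte marker and 0 pancreas markers had enough counts for it.

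**Figure D2:**
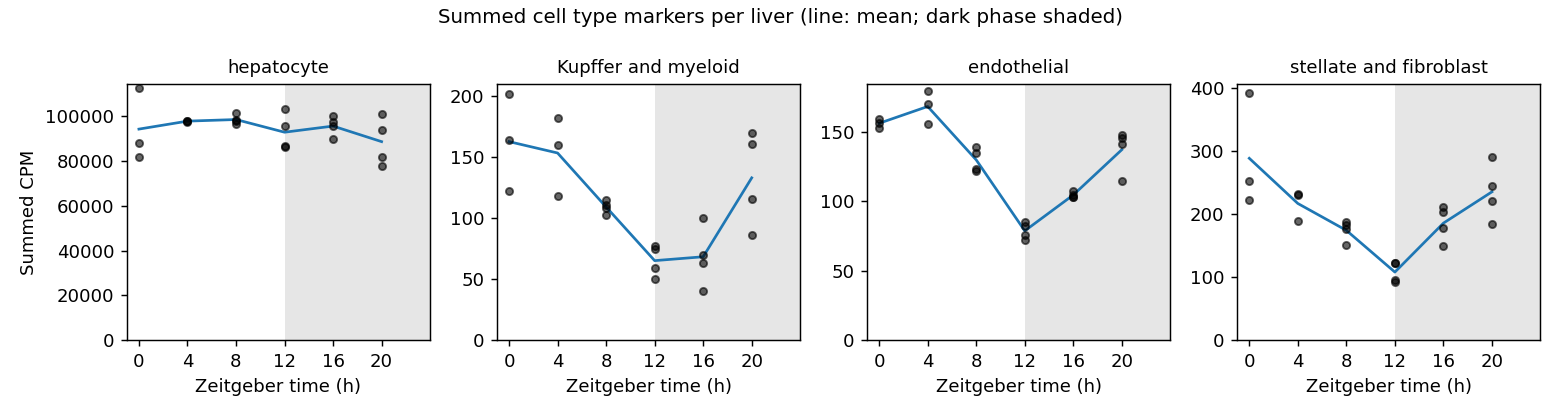
Summed CPM (vertical axes) of hepatocyte, Kupffer, endothelial and stellate markers in each of the 22 livers by sampling time in h after lights on (horizontal axes). Kupffer sums averaged 162 CPM at ZT0 and 65.1 at ZT12.

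The core clock cycled strongly: 15 of 20 (75%) of its listed genes were rhythmic, and the median amplitude over the list was 1.57 against 0.19 for all genes. Its activators were high at the end of the night. Arntl (ENSMUSG00000055116, chr7:113207465-113314126, plus strand), which encodes BMAL1, measured 21.6, 27.9 and 37.9 CPM in the ZT0 livers and 0, 0.206, 0.904 and 1.37 in the ZT8 livers. Every ZT0 liver was above every ZT8 liver. Here and below, the times compared for overlap in WT liver were those of each gene's own highest and lowest means. That choice favours a lack of overlap, which is a description and not a test. The fitted amplitude was 3.17 ± 0.39 and the peak ZT22.3 ± 0.483 h (adjusted p = 1.98e-04, JTK_CYCLE, n = 22). Npas2, the partner that can replace CLOCK, measured 8.46, 11.7 and 17.3 CPM at ZT0 and 0, 0.0777, 0.0784 and 0.0920 at ZT12, and peaked at ZT0.393 ± 0.24 h with an amplitude of 3.57 ± 0.23 (adjusted p = 3.65e-05). Clock itself, whose protein pairs with BMAL1, had these levels over the 22 livers: lowest 0, median 6.47, highest 20 CPM. It was at 0 in 1 of 4 livers at ZT8 and 3 of 4 at ZT12. Its call was fragile: the adjusted p was 0.0199 with JTK_CYCLE and 0.00436 to 0.175 over the alternatives, above 0.05 with edgeR, with DESeq2 and in the test of any time difference. Where livers were at 0, as for Arntl, Npas2, Clock, Klf10, Lpin1 and Hsph1, the fitted amplitude depends on the prior count of 2.

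The REV-ERB receptors, repressors of Arntl, peaked in the light. Nr1d1 (ENSMUSG00000020889, chr11:98767932-98775333, minus strand) measured 146, 147, 168 and 177 CPM at ZT8 and 0.908, 2.37, 3.28 and 3.42 at ZT20, with no overlap. It peaked at ZT7.75 ± 0.282 h with an amplitude of 3.06 ± 0.21 (adjusted p = 2.02e-06). Nr1d2 followed at ZT9.63 ± 0.247 h, with 120.4, 136, 137 and 144 CPM at ZT8 and 8.25, 12 and 12.9 at ZT0. Rora, an activator of Arntl, did not pass (adjusted p = 0.392), with time means from 63.6 CPM at ZT0 to 83.4 at ZT4.

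Period and Cryptochrome genes, whose proteins repress the activators, peaked from dusk into the night. Per1 measured 57.3, 62.9, 69.4 and 90.2 CPM at ZT12 and 1.5, 2.13 and 3.85 at ZT4, and peaked at ZT13.4 ± 0.347 h (amplitude 2.34 ± 0.22, adjusted p = 1.05e-04). Per2 came later: 73.6, 99.95, 107 and 114 CPM at ZT16, 6.08, 6.47 and 17.2 at ZT4 and a peak at ZT15.1 ± 0.282 h (amplitude 1.69 ± 0.13). Per3 and Cry2 peaked near lights off, at ZT12.3 ± 0.257 h and ZT12.4 ± 0.462 h, with amplitudes of 2.25 ± 0.16 and 0.62 ± 0.08. Cry1 was the latest of them: 40.9, 43.7, 45.7 and 49.1 CPM at ZT20 stood above 4.03, 4.31, 5.29 and 6.18 at ZT8, and the peak fell at ZT19.7 ± 0.256 h (amplitude 1.45 ± 0.09, adjusted p = 5.36e-07). Ciart, a further repressor of the activators, had the tallest curve among the repressors, with 29.7, 37.6, 39.9 and 41 CPM at ZT12 and 0.136, 0.35 and 0.436 at ZT0 (amplitude 3.34 ± 0.17, peak ZT12.3 ± 0.183 h, adjusted p = 2.91e-06).

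Among the remaining clock genes, Bhlhe41 (DEC2, a repressor at E-boxes) reached 13.7, 15.4, 16.1 and 16.4 CPM at ZT8 and 0.35, 0.682 and 0.785 at ZT0. Its relative Bhlhe40 missed the JTK_CYCLE threshold (adjusted p = 0.122, amplitude 0.57 ± 0.13), while the adjusted p over the alternatives ran from 1.64e-05 to 0.255, below 0.05 with edgeR, DESeq2 and limma and without ZT12 replicates 2/3 (0.0399 to 0.0486). Btrc, which encodes part of a ligase that tags clock proteins for degradation, was rhythmic with a small amplitude of 0.17 ± 0.04. The kinase genes Csnk1d and Csnk1e and the ligase gene Fbxw11 did not pass, with adjusted p of 0.392, 1.0 and 0.296.

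**Figure D3:**
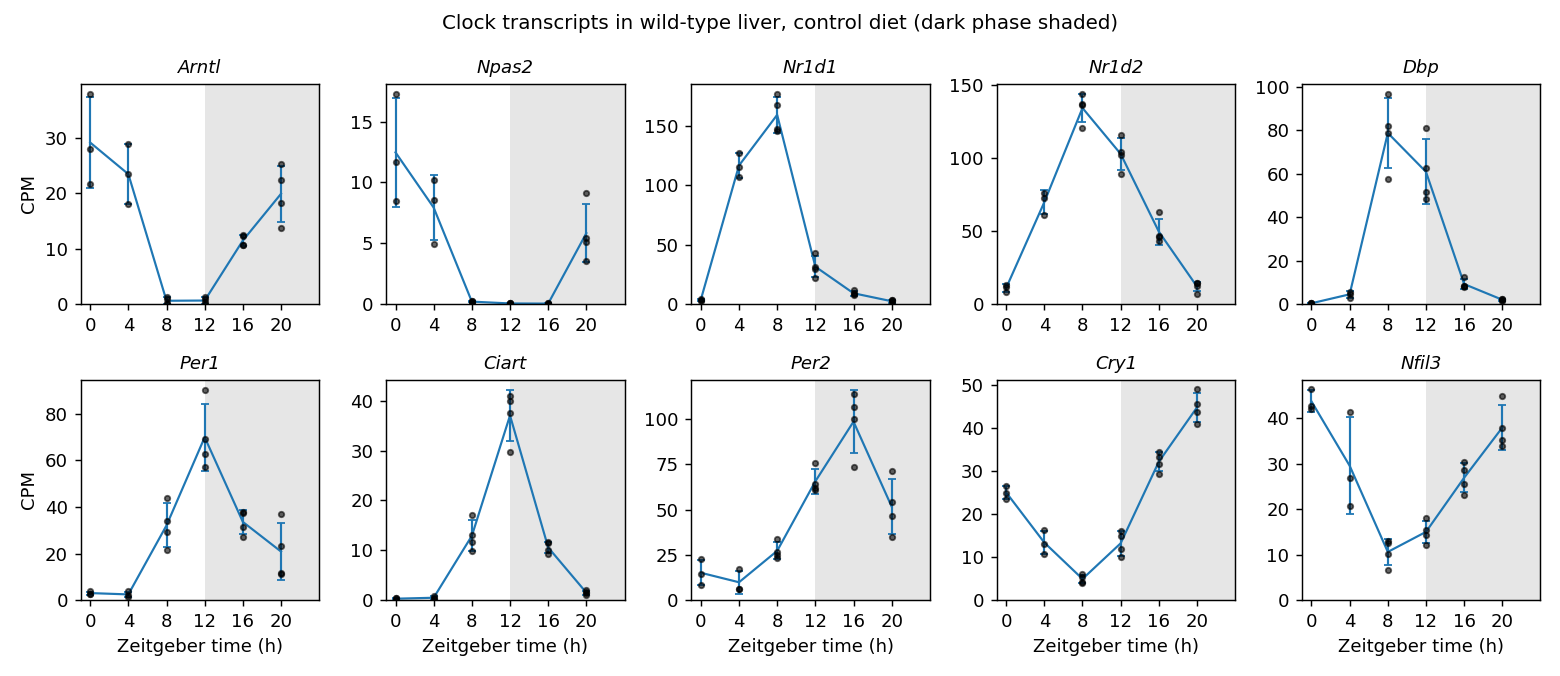
CPM (vertical axes) of 10 clock and clock output genes by sampling time in h after lights on (horizontal axes), with a point per liver, a line through the means, bars of 1 SD and darkness shaded. Arntl and Npas2 are highest at ZT0, Nr1d1 at ZT8, Ciart and Per1 at ZT12, Per2 at ZT16 and Cry1 at ZT20.

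All 10 clock output factors were rhythmic, with a median amplitude of 0.97. Dbp, a PAR bZIP activator at D-boxes, measured 57.6, 78.7, 82.2 and 96.7 CPM at ZT8 and 0.35, 0.409 and 0.523 at ZT0, the lowest ZT8 liver far above the highest ZT0 liver (amplitude 3.43 ± 0.18, peak ZT10.6 ± 0.204 h, adjusted p = 2.91e-06). Its relatives Tef and Hlf peaked at ZT11.7 ± 0.235 h and ZT12.9 ± 0.501 h. Nfil3, which represses at the same D-box, peaked on the other side of the day at ZT21.8 ± 0.408 h, with 43.7 ± 2.43 CPM at ZT0 and 10.6 ± 2.95 at ZT8 (mean ± SD). Usp2, a ubiquitin protease, rose from 0.934, 1.09 and 2.52 CPM at ZT4 to 80.5, 89.1, 89.1 and 101 at ZT12 (amplitude 2.80 ± 0.24), and the cell cycle kinase gene Wee1 peaked with it at ZT12.9 ± 0.319 h. Klf15 (a regulator of amino acid metabolism), Klf9 and Id2 had amplitudes near 0.5: 0.51 ± 0.09, 0.48 ± 0.07 and 0.45 ± 0.09. Klf10 was called with an adjusted p of 0.0366, but over the alternatives it ran from 0.00339 to 0.108, and the call ended with DESeq2, with limma, in the test of any time difference, with the JTK_CYCLE replicate block, without both livers that stood apart and without any of 15 single livers (ZT0 replicates 1/2/3, ZT4 replicates 1/3, ZT8 replicates 1/2/3/4, ZT12 replicates 1/3/4, ZT16 replicates 2/4 and ZT20 replicate 3), where it was 0.0556 to 0.0807.

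Promoter sequence is shown for clock genes because known clock factors read short motifs. RefSeq promoters (build GRCm38.p6) were found for 14 of 20 core clock genes, 8 of 10 output factors and 18 of 24 heat shock genes. In the 250 bases before each gene start, both strands were searched for the E-box CACGTG (in 6.86% of 27025 genes with a promoter), the D-box TTANGTAA (2.44%), the ROR element core TAGGTCA (2.55%), a heat shock element GAANNTTC (7.73%) and the cAMP element TGACGTCA (1.77%). An E-box was present for 4 of the 14 core clock genes (Per1, Cry1, Ciart and Bhlhe41) and for Tef and Klf15 among the output factors. Per3 held a pair of D-boxes, Nfil3 a ROR core and Hlf a cAMP element. A match is a description, not a binding site, and a missing match says only that these letters are absent from the window. Capitals mark the motif in each stretch, read 5′ to 3′ on the gene's strand. Per1 lies at chr11:69098753-69098818, plus strand, Cry1 at chr10:85185079-85185144, minus strand, Ciart, with 3 E-boxes, at chr3:95882237-95882374, minus strand, Per3 at chr4:151044786-151044900, minus strand, and Nfil3, whose capitals show the ROR core on the opposite strand, at chr13:52981040-52981081, minus strand.
Per1: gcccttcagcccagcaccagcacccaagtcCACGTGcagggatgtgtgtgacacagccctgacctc
Cry1: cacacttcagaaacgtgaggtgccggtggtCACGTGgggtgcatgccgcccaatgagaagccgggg
Ciart: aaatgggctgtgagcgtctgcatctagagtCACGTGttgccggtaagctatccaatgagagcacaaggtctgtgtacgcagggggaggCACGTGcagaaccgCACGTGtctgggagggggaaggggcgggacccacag
Per3: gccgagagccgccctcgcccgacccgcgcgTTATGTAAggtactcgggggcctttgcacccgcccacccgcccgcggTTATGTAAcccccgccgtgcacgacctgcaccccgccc
Nfil3: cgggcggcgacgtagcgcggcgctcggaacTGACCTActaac

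Around ZT0 sterol synthesis had the most members of any list: 18 of 25 (72%) cholesterol genes were rhythmic, 15 of them in the ZT0 window, with a median amplitude of 0.49 over the list. Hmgcs1 (ENSMUSG00000093930, chr13:119690379-119708260, plus strand), which makes HMG-CoA for the mevalonate pathway, measured 461, 463 and 661 CPM at ZT0 and 65.2, 97, 107 and 140.0 at ZT12. The times did not overlap (amplitude 1.38 ± 0.14, peak ZT1.28 ± 0.358 h, adjusted p = 1.05e-04). Fdft1 (squalene synthase), Pmvk and Mvd, further steps of the pathway, had amplitudes of 0.97 ± 0.12, 0.86 ± 0.10 and 0.87 ± 0.13. The stellate, endothelial and Kupffer marker sums given above were also highest in these hours, from ZT0 to ZT4.

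Fatty acid synthesis split in phase. Of the lipogenesis list 13 of 20 (68.4%) genes were rhythmic (18 with edgeR, 94.7%), and 6 of these 13 peaked around ZT0. Elovl5 (an elongase of polyunsaturated fatty acids) peaked at ZT1.57 ± 0.335 h and Acss2 (acetyl-CoA synthetase) at ZT1.78 ± 0.449 h, with amplitudes of 1.07 ± 0.10 and 0.94 ± 0.12. Acacb, whose malonyl-CoA restrains fatty acid entry into mitochondria, averaged 216 ± 37.2 CPM at ZT20 and 50.7 ± 22.3 at ZT12. Thrsp, a lipogenic protein induced by feeding, instead rose after the meal began, from 154, 179.8 and 290.3 CPM at ZT4 to 903, 1234, 1500.3 and 1590.1 at ZT16 (amplitude 1.48 ± 0.15, peak ZT15.5 ± 0.363 h, adjusted p = 5.15e-05).

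Steep curves of the ZT0 window outside the clock included those of Elovl3, Pdk4 and Tubb2a. Elovl3, an elongase of very long fatty acids, measured 249, 279, 292 and 334 CPM at ZT20, 178, 214 and 341 at ZT0 and 3.37, 8.7, 10.2 and 15 at ZT12. It peaked at ZT23.3 ± 0.38 h with an amplitude of 2.40 ± 0.24 (adjusted p = 2.31e-05). Pdk4, the kinase that shuts pyruvate out of oxidation, averaged 30.1 ± 13.5 CPM at ZT20 and 2.23 ± 1.72 at ZT12 (amplitude 2.03 ± 0.21). Tubb2a, a beta tubulin, went from 217 ± 39 CPM at ZT0 to 13.8 ± 4.7 at ZT12. Ppp1r3c, which brings phosphatase to glycogen, peaked at ZT23.1 ± 0.474 h with an amplitude of 1.22 ± 0.15.

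Around ZT4 the steepest gene with a mean of at least 10 CPM was Egr1, an immediate early transcription factor. It measured 23.2, 67.4 and 74.1 CPM at ZT4 and 0.425, 0.946, 1.2 and 1.55 at ZT16, without overlap (amplitude 2.65 ± 0.25, peak ZT3.36 ± 0.34 h, adjusted p = 7.11e-06). Of its list, 6 of 19 (35.3%) genes were rhythmic by JTK_CYCLE, below the 44.2% of all genes past the count filter, and 10 by edgeR (58.8%, near the 57.5% of all genes), with Junb at ZT7.57, Klf6 at ZT2.09 and Ier5 at ZT22.3. The calcium and calmodulin dependent kinase gene Camk1d fell from 186 ± 39.7 CPM at ZT4 to 16.9 ± 7.65 at ZT16, and Ppp1r9a, an actin binding protein, had an amplitude of 1.93 ± 0.21. Cyp4a14, a fatty acid hydroxylase, spread widely between livers (lowest 2.82, median 50.2, highest 325 CPM), and its adjusted p of 0.0113 ran from 0.00398 to 0.0623 over the alternatives, above 0.05 in the edgeR test of any time difference.

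Bile acid genes were called in 9 of 20 (45%) cases, against 44.2% of all genes past the count filter, 5 of them around ZT8. Abcb11, the pump that exports bile salts, measured 940.1, 1076 and 1082 CPM at ZT4 and 338, 365, 365 and 398 at ZT16, with every ZT4 liver higher (amplitude 0.77 ± 0.05, peak ZT2.32 ± 0.249 h, adjusted p = 5.40e-06). Abcg5 and Abcg8 (partners in the sterol exporter) peaked close together at ZT9.48 ± 0.469 h and ZT8.14 ± 0.491 h. Hsd3b7, a bile acid synthesis enzyme, shared the phase of Abcb11 at ZT1.96 ± 0.339 h.

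In the light, when no food was given, most rhythmic autophagy and proteasome genes peaked. Autophagy and lysosome genes were rhythmic in 24 of 36 (66.7%) cases, 17 of them in the light, at a median amplitude of 0.20. Gabarapl1, which coats the autophagosome, measured 453, 523, 524 and 537 CPM at ZT8 and 138, 157, 189 and 192 at ZT16 (peak ZT6.97 ± 0.32 h, amplitude 0.78 ± 0.06, adjusted p = 1.52e-05). Ulk1, the kinase that starts autophagy, peaked at ZT8.88 ± 0.416 h and Bnip3, a mitophagy receptor, at ZT12.7 ± 0.258 h. Uvrag was called at an adjusted p of 0.0430 (6.81e-05 to 0.124 over the alternatives), and the call ended without any of 14 single livers (ZT4 replicates 1/2, ZT8 replicates 2/3/4, ZT12 replicates 1/2/3, ZT16 replicates 1/2/3/4 and ZT20 replicates 1/2), where it was 0.0543 to 0.124. Proteasome subunits passed in 19 of 39 (50%) cases, against 44.2% of all genes past the count filter, 17 in the light, with small amplitudes (median 0.13). Psmd11 peaked at ZT1.98 and Psma5 at ZT6.26, whereas Psmb10 and Psmd9 peaked near ZT12.

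Insulin and growth factor signalling genes were rhythmic in 15 of 23 (65.2%) cases, most often around ZT8 (6). Trib3, a pseudokinase that binds AKT, measured 14.4, 15.9, 18.2 and 25 CPM at ZT8 and 1.11, 1.7, 2.27 and 2.55 at ZT16 (amplitude 1.54 ± 0.16, adjusted p = 4.60e-04). Rgs16, which turns off G protein signals, was among the steepest genes of the liver: 34.4, 62.4, 85.2 and 116 CPM at ZT8 and 0.262, 0.421 and 1.64 at ZT0 (amplitude 3.31 ± 0.30, peak ZT10.0 ± 0.36 h). Foxo3, a transcription factor held back by insulin, averaged 74.6 ± 14.2 CPM at ZT12 and 32.9 ± 1.19 at ZT0. Clec2h, a lectin-like membrane protein, had an amplitude of 1.44 ± 0.17 at ZT7.07 ± 0.467 h.

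Food arrived at ZT12. Of 10 gluconeogenesis genes 4 were rhythmic by JTK_CYCLE (44.4% of those past the count filter, against 44.2% of all such genes, and 8 by edgeR), all of these 4 in the ZT12 window. Pck1 (ENSMUSG00000027513, chr2:173153048-173159273, plus strand), which commits oxaloacetate to glucose, measured 4121, 4219, 4320.4 and 4399 CPM at ZT12 and 135, 413 and 582 at ZT0. Each ZT12 liver exceeded each ZT0 liver (amplitude 1.45 ± 0.27, peak ZT12.1 ± 0.68 h, adjusted p = 0.00111). Slc37a4, which carries glucose 6-phosphate into the endoplasmic reticulum, peaked at ZT13.7 ± 0.263 h with an amplitude of 1.06 ± 0.08, while Fbp1 and Mpc2 moved little (0.21 ± 0.04 and 0.14 ± 0.03).

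Gys2, the liver glycogen synthase, rose from 72.8, 97.1 and 104 CPM at ZT0 to 362, 396, 424 and 437 at ZT12 (5.15-fold from fitted trough to peak, peak ZT12.3 ± 0.161 h, adjusted p = 2.64e-06). Ugp2, which makes its substrate UDP-glucose, peaked a little earlier at ZT10.3 ± 0.267 h, and the glucose transporter gene Slc2a2 at ZT11.3 ± 0.486 h. Of the glycolysis list 12 of 16 (75%) genes were rhythmic, 10 of them in the dark. Pfkfb3, which sets fructose 2,6-bisphosphate, averaged 45.1 ± 18.5 CPM at ZT12 and 4.54 ± 1.31 at ZT4, and Pklr, the liver pyruvate kinase, peaked at ZT13.9 ± 0.577 h.

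Xenobiotic genes were rhythmic in 24 of 33 (72.7%) cases, 11 in the ZT12 window, at a median amplitude of 0.41. Por, the reductase that feeds electrons to microsomal cytochromes P450, measured 504, 597, 676 and 755 CPM at ZT12 and 103, 111 and 147 at ZT0 (amplitude 1.31 ± 0.08, peak ZT12.3 ± 0.217 h, adjusted p = 3.54e-05). Cyp2a5, a coumarin hydroxylase, peaked at ZT12 ± 0.314 h with an amplitude of 1.32 ± 0.11. Alas1, the rate-limiting enzyme of haem synthesis in liver, averaged 816 ± 461 CPM at ZT12 and 33.8 ± 7.75 at ZT4, and its adjusted p of 0.0215 ran from 5.29e-04 to 0.0550 over the alternatives, above 0.05 without ZT4 replicate 1 or ZT4 replicate 2 (0.0541 to 0.0550). Cyp2c55 peaked apart from them, at ZT5.64 ± 0.898 h.

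A steep curve of the ZT12 window outside the clock and its outputs belonged to Lpin1, a phosphatidate phosphatase of fat synthesis and a coactivator. It measured 169, 264, 318 and 442 CPM at ZT12 and 0, 11.4 and 13 at ZT0, far apart (amplitude 2.95 ± 0.44, peak ZT12.1 ± 0.549 h, adjusted p = 1.05e-04). Fatty acid oxidation genes were rhythmic in 16 of 31 (53.3%) cases, against 44.2% of all genes past the count filter, 8 around ZT12. Angptl4, an inhibitor of lipoprotein lipase, averaged 82.7 ± 26.1 CPM at ZT12 and 13 ± 12.8 at ZT0, whereas Crat, carnitine acetyltransferase, peaked at ZT22.2 ± 0.573 h. Of the NAD list 9 of 17 (56.2%) genes passed. Nampt, which makes the precursor NMN, peaked at ZT14.1 ± 0.343 h (amplitude 1.01 ± 0.10) and Cd38, which consumes NAD, at ZT1.37 ± 0.687 h.

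Genes known to respond to glucocorticoids were rhythmic in 11 of 18 (61.1%) cases, 10 of them in the dark, with a median amplitude of 0.71. Fkbp5, a chaperone partner of the receptor and a common readout of its activity, measured 50.7, 62, 64.1 and 108 CPM at ZT12 and 7.34, 13 and 16.1 at ZT4. The highest ZT4 liver was below the lowest ZT12 liver (amplitude 1.36 ± 0.15, peak ZT14 ± 0.41 h, adjusted p = 1.78e-04). Per1 and Lpin1 belong to this list as well. Cdkn1a, a cell cycle inhibitor, peaked late at ZT21.7 ± 0.24 h, with 9.96, 12.1, 23.8 and 24.3 CPM at ZT20 and 0.791, 1.03, 1.11 and 1.3 at ZT8.

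Ribosome biogenesis genes were rhythmic in 26 of 45 (60.5%) cases, 18 of them in the ZT16 window. Rrp12, a factor for pre-ribosome export, measured 14.8, 15.1, 17.1 and 20.4 CPM at ZT16 and 3.73, 4.3 and 6.08 at ZT4 (amplitude 0.79 ± 0.10, peak ZT17.3 ± 0.485 h, adjusted p = 2.26e-04). The nucleolar genes Nop56 and Nop2 peaked at ZT16.2 ± 0.781 h and ZT16.5 ± 0.499 h. Polr1a, the largest subunit of RNA polymerase I, had an adjusted p of 0.0198 (0.00271 to 0.0584 over the alternatives), above 0.05 without ZT16 replicates 3/4 (0.0584 to 0.0584) and without both livers that stood apart.

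The rhythmic members of the ribosomal protein and respiratory chain lists shared a shallow night phase. Cytosolic ribosomal protein genes passed in 31 of 81 (40.3%) cases and nuclear oxidative phosphorylation genes in 40 of 76 (52.6%), against 44.2% of all genes past the count filter. All rhythmic members of both lists peaked in the dark, with mean peaks at ZT13.4 and ZT14. Median amplitudes over the lists, 0.12 and 0.13, were below the 0.19 of all genes tested. Rpl36 measured 113, 114, 134 and 145 CPM at ZT12 and 74.4, 87.8 and 98.7 at ZT0. Cyc1, cytochrome c1 of complex III, peaked at ZT14.3 ± 0.526 h with an amplitude of 0.24 ± 0.04. Rps21 was called at an adjusted p of 0.0356, with 0.00343 to 0.108 over the alternatives and the call lost without any of 11 single livers (ZT0 replicates 1/2, ZT4 replicates 1/3, ZT12 replicates 3/4, ZT16 replicates 1/3 and ZT20 replicates 1/2/3), where it was 0.0522 to 0.108.

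Heat shock genes peaked in the feeding phase: 19 of 24 (82.6%) were rhythmic, 10 around ZT16 and 7 around ZT20, with a median amplitude of 0.52. Hsph1 (HSP105, a nucleotide exchange factor for HSP70) measured 34.9, 35.6, 41.3 and 43.4 CPM at ZT16 and 0, 0 and 0 at ZT0 (adjusted p = 6.39e-04, peak ZT14.2 ± 0.617 h). Its fitted amplitude of 3.13 ± 0.53 rests on livers at 0 and depends on the prior count. Hsp90aa1, the inducible HSP90, averaged 371 ± 54.9 CPM at ZT16 and 82.6 ± 18 at ZT8, and Hspa1b, inducible HSP70, 45.9 ± 21.5 and 7.46 ± 1.47. The collagen chaperone gene Serpinh1 peaked later, at ZT21.7 ± 0.763 h. A GAANNTTC element was present in the window of 7 of 18 heat shock genes matched, against 7.73% of 27025 genes: Hspa1a, Hspa1b, Dnaja1, Hspb1, Hspd1, Hspe1 and Fkbp4. That of Hspa1b, at chr17:34959305-34959372, minus strand, is shown as an example, with the element in capitals.
Hspa1b: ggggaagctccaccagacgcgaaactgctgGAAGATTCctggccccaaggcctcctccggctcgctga

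Chaperones of the endoplasmic reticulum came next: 20 of 31 (64.5%) genes of that list were rhythmic, 10 of them around ZT20. Hyou1, a large HSP70 of the endoplasmic reticulum, measured 247, 329, 348 and 362 CPM at ZT16 and 73.3, 82, 83.6 and 138 at ZT8 (amplitude 0.68 ± 0.13, peak ZT18.4 ± 0.756 h, adjusted p = 0.00311). Manf and Creld2 followed the same course, peaking at ZT18.6 ± 0.797 h and ZT17.8 ± 0.891 h. Herpud1, a part of the degradation route of this organelle, was earlier at ZT12.7 ± 0.296 h.

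Amino acid catabolism and urea cycle genes were rhythmic in 19 of 32 (59.4%) cases, most often around ZT16 (7). Asl, argininosuccinate lyase of the urea cycle, measured 883, 971, 978 and 1015 CPM at ZT16 and 361, 414 and 426 at ZT4 (amplitude 0.66 ± 0.04, peak ZT15.9 ± 0.231 h, adjusted p = 1.39e-06). Tat, tyrosine aminotransferase, peaked at ZT16.9 ± 0.609 h and Sds, serine dehydratase, at ZT12.4 ± 0.818 h. Bhmt, which remethylates homocysteine with betaine, peaked at ZT23.3 ± 0.779 h, averaging 6435 ± 1925 CPM at ZT20 and 1966 ± 976 at ZT12.

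Other steep curves of the night belonged to genes of differing function. Eif4ebp3, a translation repressor of the 4E-BP family, rose from 5.67, 7.6 and 10.2 CPM at ZT4 to 53, 65.1, 105 and 124 at ZT16 (amplitude 1.91 ± 0.16, peak ZT15.9 ± 0.32 h, adjusted p = 5.15e-05). Mfsd2a, a transporter of lysophospholipids, averaged 115 ± 19.2 CPM at ZT12 and 3.67 ± 1.63 at ZT4. Serpina3c, a secreted serpin, spread widely at its height, with 10.8, 143, 147 and 202 CPM in the ZT16 livers. Ppp1r3b, the liver subunit that turns on glycogen synthase, peaked at ZT19.7 ± 0.53 h with an amplitude of 1.36 ± 0.18. Ddit4, an inhibitor of mTORC1, averaged 22 ± 9.05 CPM at ZT20 and 3.59 ± 0.654 at ZT8, and Acnat2, a peroxisomal acyltransferase, peaked at ZT21.5 ± 0.453 h.

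**Figure D4:**
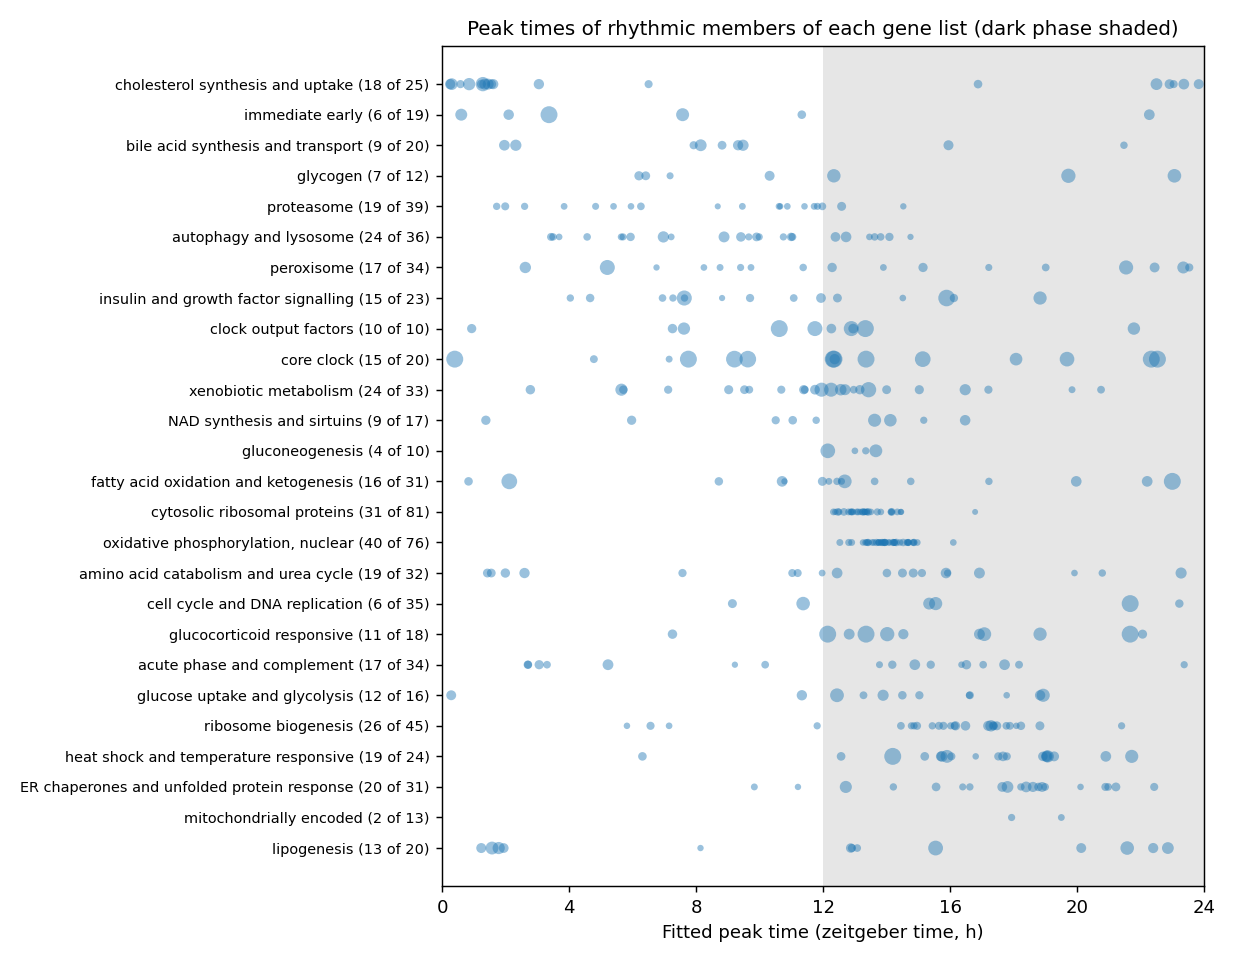
Fitted peak time in h after lights on (horizontal axis) of each rhythmic member of the gene lists (vertical axis), with point size by amplitude and darkness shaded. Cholesterol genes gather around ZT0, with 15 in that window, and ribosome biogenesis genes around ZT16, with 18.

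Several lists had no common phase. Peroxisome genes were rhythmic in 17 of 34 (51.5%) cases, against 44.2% of all genes past the count filter, and 9 of these peaked in the dark, with the carnitine octanoyltransferase gene Crot at ZT2.62 ± 0.288 h, the transporter gene Abcd2 at ZT5.2 ± 0.592 h and Hacl1, an enzyme of alpha oxidation, at ZT23.3 ± 0.38 h. Acute phase and complement genes passed in 17 of 34 (50%) cases, with Saa4 (a serum amyloid A of the resting liver) highest at ZT16, 498 ± 33.3 CPM, and Apcs, serum amyloid P, peaking at ZT3.05 ± 0.514 h. Serpina3m peaked at ZT17.7 ± 0.80 h. Hamp, encoding the iron hormone hepcidin, was called at an adjusted p of 0.0301 (2.36e-04 to 0.0708 over the alternatives) and lost without any of 9 single livers (ZT0 replicate 1, ZT4 replicates 1/2/3, ZT8 replicates 1/2/3/4 and ZT12 replicate 2), where it was 0.0512 to 0.0708. Cell cycle genes passed in 6 of 35 (24%) cases, of which 25 had enough counts for the filter (13 with edgeR, or 52% against 57.5% of all genes), among them the cyclin genes Ccne1 at ZT11.4 ± 0.598 h and Ccne2 at ZT15.5 ± 0.547 h and the reductase gene Rrm2, all at low levels.

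Several of the most abundant transcripts did not pass. Alb did not pass (adjusted p = 1.0) and lay between 51867 and 86397 CPM, and Mup7, Trf (transferrin), mt-Co1 and mt-Atp6 did not pass either, with adjusted p of 0.591, 0.723, 0.573 and 0.463. Scd1, the desaturase that makes oleate, averaged 15462 ± 5169.5 CPM at ZT4 and 6016 ± 2129 at ZT12 (adjusted p = 0.0215, 1.70e-04 to 0.0543 over the alternatives, above 0.05 without ZT0 replicate 2, at 0.0543). Apoe had an amplitude of 0.14 ± 0.07 and an adjusted p of 0.00193, or 1.76e-06 to 0.163 over the alternatives, above 0.05 with limma. Serpina3k was called at 0.0301 (5.37e-05 to 0.0640), and the call ended without any of 8 single livers (ZT4 replicate 1, ZT8 replicates 1/2/3, ZT16 replicates 2/3 and ZT20 replicates 1/4), where it was 0.0520 to 0.0640. Of the 13 genes of the mitochondrial genome 2 passed (5 with edgeR, 38.5%), mt-Cytb and mt-Nd3, with amplitudes of 0.16 ± 0.06 and 0.20 ± 0.04 and adjusted p of 0.0215 (0.00321 to 0.0804) and 0.0301 (2.71e-04 to 0.0709), both lost without single livers and mt-Cytb also with limma. For mt-Cytb these livers were ZT8 replicates 1/2/3/4 and ZT20 replicate 1 (0.0504 to 0.0642), and for mt-Nd3 ZT4 replicate 1, ZT8 replicates 1/2/3/4 and ZT12 replicate 2 (0.0561 to 0.0709). mt-Nd4 missed the threshold at 0.0778, with 0.0148 to 0.209 over the alternatives, below 0.05 with edgeR and DESeq2, without both livers that stood apart and without ZT0 replicate 3, ZT16 replicate 2 and ZT20 replicate 4 (0.0179 to 0.0407).

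A second question was whether genes carried a 12 h component on top of the 24 h curve. By the edgeR quasi-likelihood F test, 273 of 12298 genes did (2.22%), 222 of them also rhythmic at 24 h, and in 40 the 12 h amplitude was the larger. With 6 time points 4 h apart, a 12 h curve is the shortest whose size and phase can both be fitted. The count depended on single livers, ranging from 151 to 344 when each was left out, on the test (676 with DESeq2) and on the replicate block (168). The livers whose absence moved it by over 1.5 times were ZT0 replicate 1 (173 genes), ZT8 replicate 3 (176), ZT12 replicate 2 (179), ZT12 replicate 3 (173) and ZT16 replicate 4 (151). Without the pair that stood apart it was 286.

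The 12 h component was called in 8 of 20 core clock genes, 4 of 10 output factors, 8 of 25 cholesterol genes and 6 of 24 heat shock genes. The share of all genes tested was 2.22%. No other list held more than 3, and several held 0, among them glycolysis, lipogenesis and cytosolic ribosomal proteins. In Nr1d1 it had an amplitude of 0.90 with highs at ZT5.06 and ZT17.1 (adjusted p = 8.76e-04, edgeR), beside a 24 h amplitude of 3.12 in the same fit. Arntl had 1.45 and Usp2 0.94, with adjusted p of 0.00109 and 8.76e-04. None of these 3 genes showed a second maximum in its time means. Hsp90aa1 added 0.48 with highs at ZT4.16 and ZT16.2, and Hmgcs1 0.49 with highs at ZT7.80 and ZT19.8. Their 24 h amplitudes in the same fit were 0.90 and 1.33, and neither gene showed a second maximum in its time means. Lrp5, a Wnt co-receptor, Ppard, a fatty acid receptor of the nucleus, and Ppp1r9a had adjusted p of 6.16e-04, 0.00109 and 0.00128.

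Rhythms were then compared with those of GRLKO livers on the same diet, to ask which daily curves differ when hepatocytes lack the receptor. By an edgeR quasi-likelihood F test of the difference in the 24 h curve, 48 of 12333 genes differed (0.389%), 35 of them rhythmic in WT (0.656% of the 5337 tested). In 28 of these 35 the amplitude was smaller in GRLKO and in 7 it was larger, with median amplitudes of 0.45 in WT and 0.26 in GRLKO. Over all 48 genes it was smaller in 28 and larger in 20, with medians of 0.35 and 0.28. The 35 were chosen by a rhythm in WT alone, which favours smaller amplitudes in GRLKO, so their split is not a test of direction. Without the pair that stood apart the count was 38, and with DESeq2 138. Leaving out WT ZT0 replicate 2 or ZT12 replicate 1 gave 30 and 31. Of the 20 core clock genes, edgeR called 0, with 2 at an unadjusted p under 0.05, and DESeq2 and limma called 1 and 0.

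Eif4ebp3 at ZT12 measured 46.5 to 134 CPM in 4 WT livers and 4.54 to 6.05 in 4 GRLKO livers. The genotypes did not overlap at any of the 6 times, and at ZT4 it measured 5.77 to 10.4 and 2.07 to 2.96 CPM. Its amplitude was 1.90 ± 0.17 in WT and 0.43 ± 0.14 in GRLKO (adjusted p = 0.00227, edgeR). Nucks1, a chromatin protein, had 83.8 to 94 CPM in WT and 51.5 to 54.1 in GRLKO at ZT12, with amplitudes of 0.38 ± 0.04 and 0.09 ± 0.03 (adjusted p = 3.38e-06). St3gal5, which makes the ganglioside GM3, had amplitudes of 1.29 ± 0.08 and 0.44 ± 0.08 (adjusted p = 5.08e-05), and Cdip1 0.45 ± 0.08 and 0.14 ± 0.03 (adjusted p = 0.00373). Of 18 glucocorticoid responsive genes 2 differed in their 24 h curve, and Per1 and Tat did not (adjusted p = 0.834 and 0.412, edgeR). The test does not compare mean levels. At ZT12 Per1 measured 57.9 to 92.9 CPM in WT and 28.7 to 48.6 in GRLKO, and Tat 2047 to 2590 and 872 to 1579. The genotypes overlapped for Per1 at ZT0 (2.63 to 3.92 and 2.13 to 5.97) and for Tat at ZT16 (1422 to 2740 and 1876 to 2312). Among the called, Fkbp5 had an amplitude of 1.36 ± 0.16 in WT and 0.44 ± 0.07 in GRLKO (adjusted p = 0.0188), with peaks at ZT14 and ZT13.2. Gfra1, a co-receptor for GDNF, Pter and the output factor Id2 also differed, with adjusted p of 0.00150, 0.00227 and 0.0112.

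Curves also differed between the diets. The same WT livers served as controls here and in the genotype comparison. In both, peaks and amplitudes were fitted to each group separately after TMM scaling of the 2 groups together, so they can differ slightly from those given above. By edgeR, 3505 of 12561 genes differed in their 24 h curve between the diets (27.9%), among them 2129 of the 5358 rhythmic on the control diet (39.7%). Of these, 1906 peaked earlier on caloric restriction and 223 later, with a median absolute shift of 4.03 h over both directions. No rhythm on restriction was required, so peaks of nearly flat curves there enter these counts. Shifts reached 11.8 h among the function lists, and near 12 h earlier and later cannot be told apart. Median amplitudes were 0.32 on the control diet and 0.35 on restriction (891 smaller and 1238 larger on restriction). Over all 3505 genes the medians were 0.23 and 0.33, with 1018 smaller and 2487 larger on restriction. Libraries of the diets were deposited in separate tables with their own library numbers, so diet and set of libraries cannot be told apart. Endothelial markers moved with the diet: 6 of 6 differed in their curve, all with a smaller amplitude on restriction, against 27.9% of all genes. Kupffer markers (2 of 8, 0 with limma) and stellate markers (2 of 7) differed at near that share. Hepatocyte markers differed in 2 of 6 cases, 0 of them with a smaller amplitude on restriction, and cholangiocyte markers in 2 of 4 (1 with limma). At ZT12 the hepatocyte markers summed to 93187 ± 8263 CPM on the control diet and 171460 ± 2963 on restriction. Erythrocyte markers differed in 1 of 5 cases and lymphocyte markers in 1 of 1 (0 with limma). Endothelial markers summed to 168 ± 11.5 CPM at ZT4 and 78.9 ± 6.02 at ZT12 on the control diet, and to 159 ± 12.3 and 160.2 ± 14.8 on restriction. Without the pair that stood apart, 3374 genes differed. Among the restricted livers, 1 at ZT12 held exocrine pancreas transcripts, with markers summing to 1044.4 CPM. It was kept, and restricted livers were never left out, so its part in these counts was not tested.

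Most core clock genes that differed peaked later on the control diet. Of 20 core clock genes 14 differed, 13 of them rhythmic on the control diet, and all of these 13 peaked earlier on caloric restriction, by 1.69 to 6.27 h (median 2.69). The remaining gene, Rora, had its fitted peak 7.32 h later on restriction (adjusted p = 0.0421, edgeR). Among the 13, the largest shifts were those of Btrc (6.27 h), with small amplitudes of 0.17 and 0.20, and Clock (5.29 h), whose rhythm call was fragile. The next largest was 3.30 h, for Npas2. Arntl peaked at ZT22.3 on the control diet and ZT19.6 on restriction (adjusted p = 0.00319, edgeR). Nr1d1 peaked at ZT7.77 and ZT5.21, and at ZT4 it measured 107 to 127 CPM in 3 control livers and 145 to 219 in 3 restricted livers. Cry1 peaked at ZT19.7 and ZT16.5 with amplitudes of 1.45 ± 0.10 and 1.47 ± 0.14 (adjusted p = 6.22e-06). Among the genes with the smallest p were Ncoa4, the cargo receptor for ferritin, whose curve was nearly flat on the control diet (amplitude 0.08 ± 0.03) and taller on restriction (0.58 ± 0.04, adjusted p = 7.04e-08), and Abhd17a, a depalmitoylase that moved from ZT13.6 to ZT5.04 (adjusted p = 2.52e-07). Mvp (major vault protein), Hsd3b7 and Chka (choline kinase) were also among them, with adjusted p of 2.69e-07, 5.40e-07 and 5.75e-07.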

How the data were processed

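Poly(A) RNA of liver was sequenced from TruSeq libraries made from 1 µg of RNA. The deposited tables hold estimated counts per gene that the authors produced with FastQC, MultiQC and Salmon, summed to genes, with mm10 as the stated build, and they were rounded to whole numbers here. Of 27654 gene identifiers, 27244 matched GENCODE M21, which gave symbols and GRCm38 coordinates. Groups follow the sample titles, and of 30 pairs of the 22 WT control libraries within a time point 0 were identical.

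In R 4.3.3, counts were variance-stabilised with DESeq2 1.42.0, and JTK_CYCLE was rewritten with its exact null for 24 h curves at 6 phases, 2 h apart, and their mirror images, for genes with at least 1 count. P-values were Bonferroni adjusted over phases and then by Benjamini-Hochberg over genes. Amplitude and peak time came from limma 3.58.1 on log2 CPM after TMM scaling (prior count 2). The 12 h component and the differences in 24 h curves between genotypes and diets used edgeR 4.0.16 quasi-likelihood F tests on genes past filterByExpr (minimum count 10). The JTK_CYCLE code and the tests were tested on simulated data. Figures were drawn with Python 3.11.15 and matplotlib 3.10.9.

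Alternatives were edgeR, DESeq2 and limma harmonic tests, an edgeR test of any time difference, log2 CPM in JTK_CYCLE, other filters and amplitude minimums, a replicate block, and leaving out each liver or the pair that stood apart. Named genes are every core clock and clock output gene, the 4 largest amplitudes of each window at a mean of at least 10 CPM, up to 4 largest amplitudes of each other list at a mean of at least 1 CPM, the 10 highest mean levels, and the 6 smallest p of each edgeR test at a mean of at least 10 CPM, leaving out Gm and Rik models. Results for 5 genes in these sets are not reported here, though totals and list counts include them. Members and lists were chosen with earlier results of these data known. Deposited counts of the separate ZT12 experiments were not used, because they hold no other time.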

Additional observations from a re-analysis of the deposited data

Results flagged for a closer look

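For 54 quantities, within time points of 4 livers, the gap between the highest or lowest liver and its nearest neighbour was set against the whole range. Of 216 such groups, 9 had a liver that stood out, where chance gives about 1 in 20. The exocrine pancreas markers of ZT16 replicate 2 summed to 665 CPM, and the next liver had 4.65. In that liver Nr1d2 was also high at 62.9 CPM (next 46.5), Dbp high at 12.4 (next 8.29) and mt-Co1 low at 28760.0 (next 30092). ZT12 replicate 2 had Clock at 2.9 CPM where the next liver had 0, and Npas2 at 0 where the next had 0.0777. Klf9 reached 181 CPM in ZT8 replicate 2 (next 135), Klf10 12.4 in ZT20 replicate 1 (next 6.55) and Trf 12673 in ZT8 replicate 3 (next 11703).

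Groups differed in their 24 h curve by the edgeR test of the difference itself in 48 genes between genotypes and in 3505 between diets. The smallest adjusted p between genotypes were 3.38e-06 for Nucks1, 5.08e-05 for St3gal5, 0.00150 for Gfra1, 0.00227 for Eif4ebp3, 0.00227 for Pter and 0.00373 for Cdip1. Between diets, among the smallest were 7.04e-08 for Ncoa4, 2.52e-07 for Abhd17a, 2.69e-07 for Mvp, 5.40e-07 for Hsd3b7 and 5.75e-07 for Chka.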

How the results depend on the processing

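No named rhythmic gene had its fitted peak over 6 h away under the edgeR, DESeq2 or limma harmonic tests or with livers left out, though 5, 2 and 2 peaks moved by more than their standard error with these tests. Directions of the genotype and diet differences were not tested under the alternatives. The number of rhythmic genes stayed within 1.5 times of 5456 except with an amplitude minimum of 0.3, which left 1599 genes and a median amplitude of 0.56, since fewer small curves count. It was 6854 with the edgeR harmonic test, 7174 with DESeq2, 6833 with limma, 6244 in the edgeR test of any time difference, 5636 on log2 CPM, 5648 over genes past filterByExpr only and 5799 without an amplitude minimum. The share peaking in the dark ran from 48.3 to 49.7%. The median amplitude with limma on variance-stabilised values was 0.20, and the amplitudes of 64 of 152 named genes moved by more than their standard error with it (9 with edgeR and 7 with DESeq2). The cause was not tested. With DESeq2 the 12 h component was called in 676 genes and the genotype difference in 138, and the cause was not tested. Between the diets 3138 to 3804 curves differed over the other tests and filters. Leaving out the pair of livers that stood apart, and dropping the count filter in the 12 h test (186 genes), were chosen after seeing the data.

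Leaving out each of the 22 WT control livers in turn (GRLKO and restricted livers were never left out) gave 4835 to 5426 rhythmic genes, 48.3 to 49.4% in the dark, median amplitudes of 0.32 to 0.34, 151 to 344 genes with a 12 h component, 30 to 58 genes that differed between genotypes and 3205 to 3515 between diets. The 12 h count was 173 without ZT0 replicate 1, 176 without ZT8 replicate 3, 179 without ZT12 replicate 2, 173 without ZT12 replicate 3 and 151 without ZT16 replicate 4. The genotype count was 30 without ZT0 replicate 2 and 31 without ZT12 replicate 1. Over 3344 tests of 152 named genes with a liver left out, 73 lost and 5 gained a call, in 12 genes.

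With the replicate number as a replicate block, JTK_CYCLE called 6147 genes and edgeR 6745, the 12 h component fell to 168 genes, and the genotype and diet differences were 35 and 3246. Replicate numbers did not pair samples in the data: 51 pairs of livers with the same number had a mean residual correlation of 0.00906 (−0.194 to 0.147) against −0.00305 in 150 other pairs, a hint from the data and not from the design.

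Of 8767 genes with a mean of at least 5 CPM, 118 had a liver at 0, and 22 of those were called. The cause of these zeros was not tested.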
